A study of Mus musculus with 6 samples.

Results

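Mesothelium is the sheet of flattened cells that covers the serous surface of the abdominal organs, the epididymal fat pad included, and secretes the lubricating fluid of the body cavity. Its cells arise from mesoderm, yet they carry microvilli, cell junctions and simple-epithelial keratins, and they are recognised by surface proteins such as mesothelin and uroplakins and by the transcription factor WT1. In the fat pad of the mouse, mesothelial cells form a thin outer layer over the adipocytes and their stroma. The genes followed here are 10 mesothelial genes: Msln, Upk3b, Upk1b, Gpm6a and Lrrn4, which code for membrane proteins, the keratin genes Krt8, Krt18 and Krt19, and the transcription factor genes Wt1 and Bnc1. They were taken from a list of mesothelial markers, chosen with earlier results of these data known. Every probe set that carried the symbol of 1 of them alone was kept. That gave 17 of the 45037 probe sets on the array for these 10 of the 18193 genes it names.

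Whole epididymal white adipose tissue of C57BL/6 mice aged 8 weeks was profiled on 6 Affymetrix expression arrays, 1 per mouse, from 500 ng of total RNA each. The 3 WT mice were wild type, and the labels give no Cre or floxed allele for them. In the 3 CNOT3KO mice, Cnot3, which codes for a scaffold protein of the mRNA deadenylation machinery CCR4-NOT, had been deleted by Cre expressed from the Adiponectin promoter. That promoter is active in adipocytes, so the deletion was not aimed at mesothelial cells, and recombination in them was not measured. The question was how the transcripts of the tissue change when adipocytes lose CNOT3. Values are the MAS5 signals as deposited, a linear brightness per probe set, whose median over all probe sets lay between 82.1 and 92.9 across arrays. Precision is limited by there being 3 arrays in a group. In WT the brighter Cnot3 probe set gave 301 ± 7.02 (SD over 3 mice), against 201 ± 25.6 in CNOT3KO (log2 difference -0.54, limma adjusted p = 0.0131), and the other did not pass the test (log2 difference -0.19). Whether these probe sets lie inside the deleted region was not analysed here. Adipoq, a marker of the labelled tissue, read 28794 in WT.

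Of the 10 mesothelial genes, 5 fell in the CNOT3KO fat pad, 0 rose and 5 did not pass the test. The genes that fell were Msln, Upk3b, Gpm6a, Lrrn4 and Krt18, and the genes that did not pass were Upk1b, Krt8, Krt19, Wt1 and Bnc1. Over all 12769 genes tested, 16.9% were lower and 23.2% were higher in CNOT3KO at the same threshold, a limma adjusted p under 0.05. Because the list was chosen with earlier results known, these counts are a description. All 10 log2 differences were negative, with a median of -0.56, against a median of 0.02 over all genes tested, of which 48.0% were negative. All 12 adipocyte markers and all 12 endothelial markers listed below were negative too, so a shared sign is not particular to these genes. For 8 of the 10 genes the 95% interval of the difference, not adjusted for the number of genes, lay wholly below 0. The share of all genes with such an interval was not counted. In these bulk samples, fewer mesothelial cells and less RNA per mesothelial cell cannot be told apart. Without WT mouse 2 the number of genes called lower was 3 (Msln, Lrrn4 and Krt18), and with each array centred on its median it was 8.

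**Figure D1:**
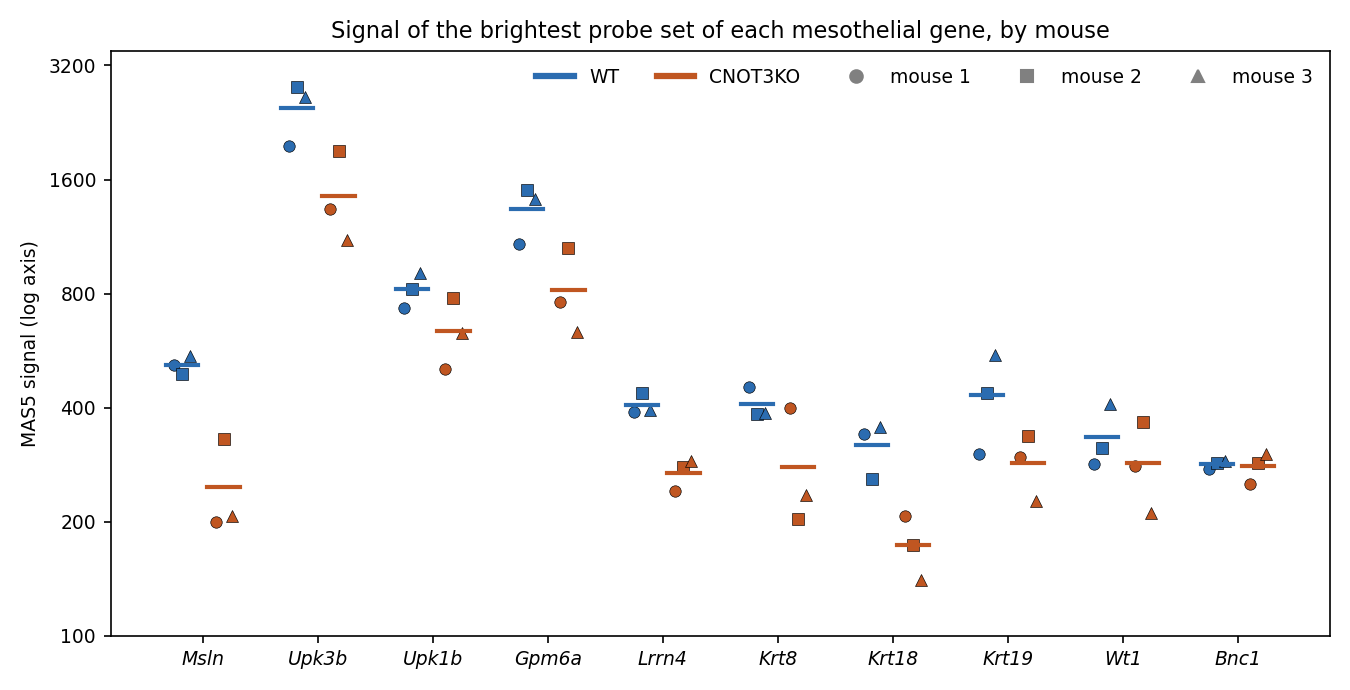
MAS5 signal (log axis) of the brightest probe set of each mesothelial gene in each mouse, with WT in blue, CNOT3KO in orange, marker shapes for mice 1 to 3 and a horizontal line at each group mean. For Msln, Upk3b, Gpm6a, Lrrn4 and Krt18 all 3 CNOT3KO mice lie below all 3 WT mice, and for Bnc1 the groups lie on top of each other.

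At the level of probe sets, 8 of 17 were lower, 0 were higher and 9 did not pass. Over all 22861 named probe sets tested, 17.2% were lower and 18.6% were higher. In 7 of the 17 (41.2%) every CNOT3KO mouse lay below every WT mouse, a pattern that 24.4% of all tested probe sets showed. All 17 passed the filter on dim probe sets, and their mean signals ran from 199 to 1957. Without WT mouse 2 the number of probe sets called lower was 4, and it was 5 without CNOT3KO mouse 1 and 5 without CNOT3KO mouse 3. It was 12 with each array centred on its median and 11 with array weights.

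**Figure D2:**
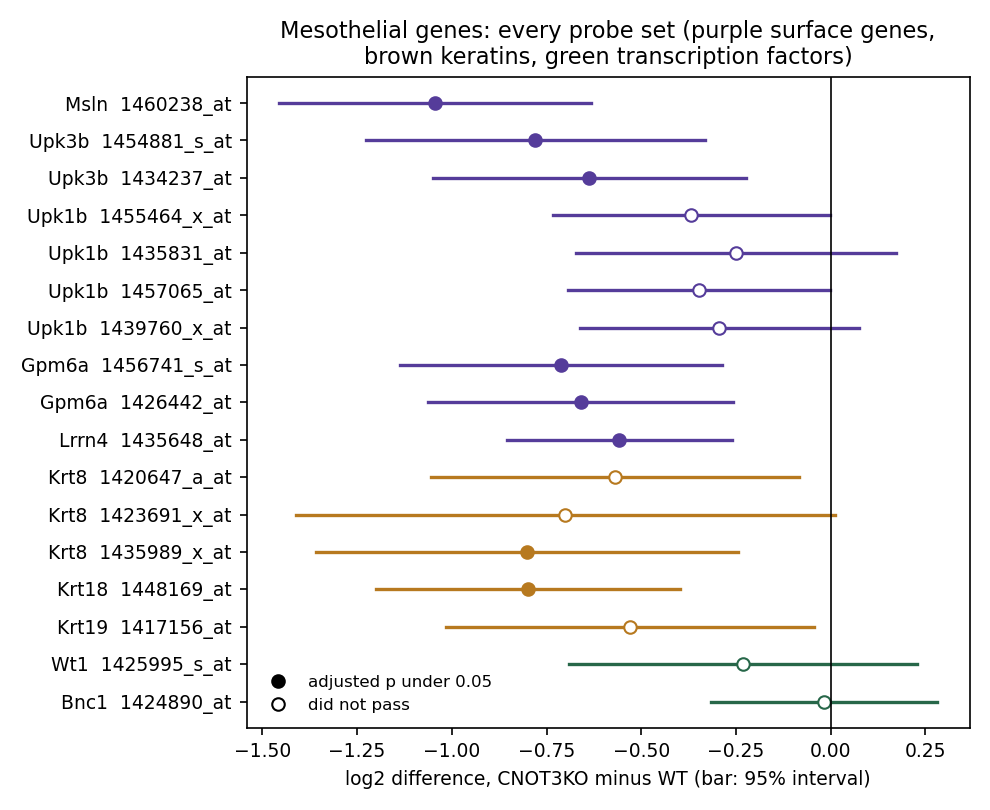
Log2 difference (CNOT3KO minus WT) of each of the 17 probe sets with its 95% interval, filled where the limma adjusted p over all probe sets was under 0.05. All 17 points lie left of 0, and 5 intervals reach above it, those of Wt1, Bnc1, 2 of the 4 Upk1b probe sets and 1 of the 3 Krt8 probe sets.

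Msln codes for mesothelin, a protein tethered to the outer membrane of mesothelial cells by a lipid anchor. Its probe set read 519, 490 and 548 in WT mice 1 to 3 and 200, 331 and 207 in the CNOT3KO mice. Every CNOT3KO mouse was below every WT mouse, and the WT mice lay close together. The difference was -1.04 on the log2 scale (SE 0.18, limma adjusted p = 0.0018), which puts the CNOT3KO level at 48.5% of WT. This and the other percentages of WT were computed from the log2 differences. Msln was called lower under all 19 alternative analyses, with log2 differences from -1.26 to -0.88.

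Upk3b codes for uroplakin 3B, a membrane protein of the family that plates the surface of the bladder lining and that is also made by mesothelium. The brighter of its 2 probe sets read 1957, 2803 and 2639 in WT and 1334, 1900 and 1106 in CNOT3KO. The groups did not overlap, although CNOT3KO mouse 2 lay just under WT mouse 1. The log2 difference was -0.78 (SE 0.20, limma adjusted p = 0.0122), or 58.3% of WT. The call was lost without WT mouse 2 (log2 difference -0.68, adjusted p = 0.0541). The dimmer probe set read 1208, 1627 and 1658 in WT and 859, 1241 and 793 in CNOT3KO, so the groups overlapped there, and it too was called lower (log2 difference -0.64, adjusted p over probe sets 0.0231).

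Upk1b codes for uroplakin 1B, a tetraspanin that partners other uroplakins in the membrane. Its brightest probe set read 733, 823 and 907 in WT and 505, 780 and 629 in CNOT3KO. CNOT3KO mouse 2 lay among the WT mice, and the difference of -0.37 on the log2 scale (95% interval -0.73 to -0.01) did not pass the test, with a limma adjusted p of 0.0981. None of its 4 probe sets passed, and their differences ran from -0.37 to -0.25. Upk1b passed when each array was centred on its median (log2 difference -0.47), with array weights (-0.58) and without CNOT3KO mouse 2 (-0.52). Without CNOT3KO mouse 1 its difference shrank to -0.22 (adjusted p = 0.339).

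Gpm6a codes for a membrane glycoprotein of the proteolipid family, best known from neurons and also made by mesothelial cells. The brighter of its 2 probe sets read 1082, 1498 and 1422 in WT and 759, 1054 and 634 in CNOT3KO. All CNOT3KO mice were below all WT mice, with CNOT3KO mouse 2 just under WT mouse 1. The log2 difference was -0.71 (SE 0.19, limma adjusted p = 0.0145), or 61.1% of WT. The dimmer probe set read 566, 717 and 644 in WT against 338, 530 and 347 in CNOT3KO and was called lower as well (log2 difference -0.66). The call on the gene was lost without WT mouse 2 (-0.62, adjusted p = 0.0618) and without CNOT3KO mouse 1 (-0.68, adjusted p = 0.0525).

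Lrrn4, which codes for a membrane protein with leucine-rich repeats, had the smallest standard error among the genes that fell. It read 389, 437 and 394 in WT and 240, 279 and 289 in CNOT3KO, so the highest CNOT3KO mouse was well below the lowest WT mouse. The log2 difference was -0.56 (SE 0.13, limma adjusted p = 0.0082), or 67.9% of WT. The call held when any 1 array was left out.

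KRT8 and KRT18 pair to form the intermediate filaments of simple epithelia and mesothelium, and KRT19 is another keratin of the same filaments. Krt18 read 340, 259 and 356 in WT and 207, 174 and 140 in CNOT3KO. The groups did not overlap, and the log2 difference was -0.80 (SE 0.18, limma adjusted p = 0.0067), or 57.5% of WT, called lower under all 19 alternatives. Its partner Krt8 gave a less even picture. The brightest of 3 Krt8 probe sets read 454, 386 and 387 in WT and 398, 203 and 234 in CNOT3KO, where CNOT3KO mouse 1 lay among the WT mice. Its log2 difference of -0.57 (SE 0.22) did not pass, with a limma adjusted p of 0.0630.

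The other Krt8 probe sets showed the same high mice. One read 468, 198 and 227 in WT and 244, 146 and 117 in CNOT3KO, a log2 difference of -0.70 that did not pass. The other read 343, 209 and 224 in WT and 186, 142 and 91.6 in CNOT3KO, with no overlap between groups, and it was called lower (log2 difference -0.80, adjusted p over probe sets 0.0310). Mouse 1 had the highest reading of its group in all 3 Krt8 probe sets, in WT and in CNOT3KO. Without CNOT3KO mouse 1, Krt8 was called lower (log2 difference -0.84, adjusted p = 0.0065), whereas without CNOT3KO mouse 2 its difference was -0.39 and with array weights -0.18 (adjusted p = 0.505). The log2 ratio of Krt18 to Krt8 differed by -0.23 between the groups, which overlapped (two-sided exact permutation p = 0.4 over 3 against 3 mice).

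Krt19 read 302, 437 and 552 in WT and 296, 336 and 227 in CNOT3KO. WT mouse 1 lay among the CNOT3KO mice, and the log2 difference of -0.53 (SE 0.22) did not pass, with a limma adjusted p of 0.0804. Without WT mouse 1 it was called lower (log2 difference -0.75, adjusted p = 0.0171), and without WT mouse 3 its difference was -0.34 (adjusted p = 0.249).

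Wt1 codes for a zinc-finger transcription factor that marks mesothelium and its precursors. It read 285, 313 and 409 in WT and 281, 366 and 211 in CNOT3KO. The groups overlapped through most of their range, and the log2 difference of -0.23 (95% interval -0.69 to 0.23) did not pass the test. With 1 array left out it ranged from -0.41, without CNOT3KO mouse 2, to -0.045, without CNOT3KO mouse 3, and was -0.089 without WT mouse 3. Bnc1 codes for basonuclin 1, a zinc-finger factor of squamous epithelium, germ cells and mesothelium. It read 275, 286 and 289 in WT and 252, 286 and 302 in CNOT3KO, a log2 difference of -0.018 with a 95% interval from -0.31 to 0.28. That interval does not reach the log2 difference of any of the 5 genes that fell. The sign for Bnc1 was positive under quantile normalization (0.017) and without CNOT3KO mouse 1 (0.052).

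Promoter sequences show what lies upstream of genes that fell and genes that did not. RefSeq windows of 250 bases before the transcription start (build GRCm38.p6) were matched for 6 of the 10 genes: Upk3b, Lrrn4, Gpm6a, Krt18, Krt8 and Bnc1. Both strands were searched for GGAATG, the letters bound by TEAD factors, for GGGCGG, the letters of the Sp1 box, and for TGANTCA (AP-1), GCGNGGGCG (the EGR and WT1 site) and TATAAA. Capitals mark matches to GGAATG or GGGCGG, or to their complements on the other strand. The windows of 3 genes that fell each hold 1 match to GGAATG.
Upk3b: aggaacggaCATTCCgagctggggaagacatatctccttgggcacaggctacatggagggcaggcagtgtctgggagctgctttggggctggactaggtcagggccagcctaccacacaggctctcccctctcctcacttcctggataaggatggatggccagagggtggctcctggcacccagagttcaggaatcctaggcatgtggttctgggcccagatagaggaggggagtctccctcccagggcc
Lrrn4: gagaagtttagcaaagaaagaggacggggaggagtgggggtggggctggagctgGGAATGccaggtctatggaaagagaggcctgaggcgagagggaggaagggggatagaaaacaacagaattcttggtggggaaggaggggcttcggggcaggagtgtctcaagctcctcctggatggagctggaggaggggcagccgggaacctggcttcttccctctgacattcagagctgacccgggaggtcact
Gpm6a: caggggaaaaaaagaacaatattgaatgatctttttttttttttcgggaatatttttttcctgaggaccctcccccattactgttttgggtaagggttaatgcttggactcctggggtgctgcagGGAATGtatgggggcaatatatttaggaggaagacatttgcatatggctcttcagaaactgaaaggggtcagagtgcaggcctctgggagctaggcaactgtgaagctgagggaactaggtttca
These windows are chr5:136038246-136038495 on the plus strand, chr2:132880863-132881112 on the minus strand and chr8:54779184-54779433 on the plus strand. The match begins 241 bases before the start in Upk3b, where it reads CATTCC, 196 before it in Lrrn4 and 125 before it in Gpm6a. GGAATG occurs in 12.6% of the 32851 windows of that length in the table. The window of a second annotated Gpm6a start holds no GGAATG and holds the only TATAAA match of the 7 windows searched.

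Krt8 and Krt18 are neighbours on chromosome 15, with no other protein-coding gene between them in RefSeq. Their windows are shown because the 2 keratins pair in the filament, and neither holds any of the 5 motifs.
Krt18: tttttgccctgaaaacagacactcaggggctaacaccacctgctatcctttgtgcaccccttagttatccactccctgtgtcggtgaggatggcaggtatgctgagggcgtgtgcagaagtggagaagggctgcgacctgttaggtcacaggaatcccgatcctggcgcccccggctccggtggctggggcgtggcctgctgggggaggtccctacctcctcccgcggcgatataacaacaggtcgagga
Krt8: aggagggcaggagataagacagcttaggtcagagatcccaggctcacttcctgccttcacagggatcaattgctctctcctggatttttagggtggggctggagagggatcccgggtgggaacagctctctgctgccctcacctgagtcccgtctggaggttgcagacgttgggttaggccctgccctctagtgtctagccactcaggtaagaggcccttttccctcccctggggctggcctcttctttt
The Krt18 window is chr15:102027966-102028215 on the plus strand, and the Krt8 window is chr15:102004343-102004592 on the minus strand. Their GC contents are 60.4% and 58%, near the 60.8% of Upk3b and the 59.2% of Lrrn4. The median over all windows is 52.4%.

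The window of Bnc1, the gene whose groups lay closest together, is of another kind.
Bnc1: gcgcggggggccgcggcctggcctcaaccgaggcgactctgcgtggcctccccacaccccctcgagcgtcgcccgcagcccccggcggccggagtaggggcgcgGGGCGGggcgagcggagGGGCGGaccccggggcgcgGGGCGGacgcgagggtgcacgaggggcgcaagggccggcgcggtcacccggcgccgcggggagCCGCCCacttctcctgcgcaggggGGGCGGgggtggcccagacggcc
It is chr7:81992300-81992549 on the minus strand, has a GC content of 83.6% and holds 5 matches to GGGCGG, between 146 and 23 bases before the start. GGGCGG occurs in 32.7% of all windows, and none of the other 6 windows holds it. Neither TGANTCA (6.75% of all windows) nor GCGNGGGCG (4.7%) was found in the 7 windows. A match is a string of letters and does not show that a factor binds there.

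A further list of 26 genes described in mesothelium was read in the same way. Of these, 24 had a probe set naming only that gene and 22 passed the filter. In CNOT3KO 4 fell (18.2%, near the 16.9% over all genes), 0 rose and 18 did not pass. The log2 difference was negative for 18 of the 22, with a median of -0.24. The genes that fell were Bnc2, Podxl, Cd200 and Rspo1, and with array weights the number lower was 8 and the number higher was 1.

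Bnc2, the relative of Bnc1 that is also made by fibroblasts, read 2689, 1775 and 2027 in WT and 870, 814 and 845 in CNOT3KO. The groups lay far apart, at 40.2% of WT (log2 difference -1.32, SE 0.15, limma adjusted p = 0.00016), and a dimmer Bnc2 probe set fell to 33.4%. Podxl, which codes for a sialomucin of mesothelium, kidney podocytes and blood vessels, read 1073, 1132 and 973 in WT and 455, 625 and 585 in CNOT3KO. Its brighter probe set fell (log2 difference -0.91, 53.0% of WT), while the other, at -0.46, did not pass. Cd200, which codes for a surface glycoprotein of mesothelium, endothelium and lymphocytes, read 1128, 1102 and 899 in WT and 473, 692 and 513 in CNOT3KO. It fell to 54.2% of WT (log2 difference -0.88).

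Rspo1 codes for R-spondin 1, a secreted amplifier of Wnt signalling. It read 662, 718 and 740 in WT and 494, 577 and 365 in CNOT3KO, with no overlap, and its log2 difference was -0.56 (limma adjusted p = 0.0204), a call lost without WT mouse 2 or without WT mouse 3. Among the 18 genes that did not pass, Ildr2 differed by -0.47 (adjusted p = 0.0536), the transcription factor gene Gata4 by -0.83 (adjusted p = 0.0701), Krt7 by -0.44 (adjusted p = 0.0849) and Muc16, the mucin that binds mesothelin, by -0.43 (adjusted p = 0.120). Gata4 was dim, with means of 73.2 in WT and 33.2 in CNOT3KO, near the filter of 51.6, and its other probe set was too dim to test. The Ildr2 difference was -0.17 when its probe sets were averaged, and that of Muc16 was -0.29 without CNOT3KO mouse 3. Tcf21, a transcription factor gene of visceral fat precursors and mesothelium, differed in the other direction, by 0.36 (adjusted p = 0.0919). It read 229, 243 and 254 in WT and 362, 335 and 260 in CNOT3KO, with no overlap, while a dimmer Tcf21 probe set differed by 0.055. Plxna4 differed by -0.37, again with no overlap between groups, Dmkn by -0.36 and Nkain4 by -0.28. Several genes of the list lay near 0. The protease inhibitor gene Slpi read 4244, 4218 and 4677 in WT and 4068, 4352 and 4738 in CNOT3KO, a log2 difference of 0.00 with a 95% interval from -0.23 to 0.23. Pdpn, which codes for podoplanin, differed by 0.02, the tight-junction gene Cldn15 by -0.06, Gata6 by -0.08 and the retinoic-acid enzyme gene Aldh1a2 by 0.10, and none of these passed.

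**Figure D3:**
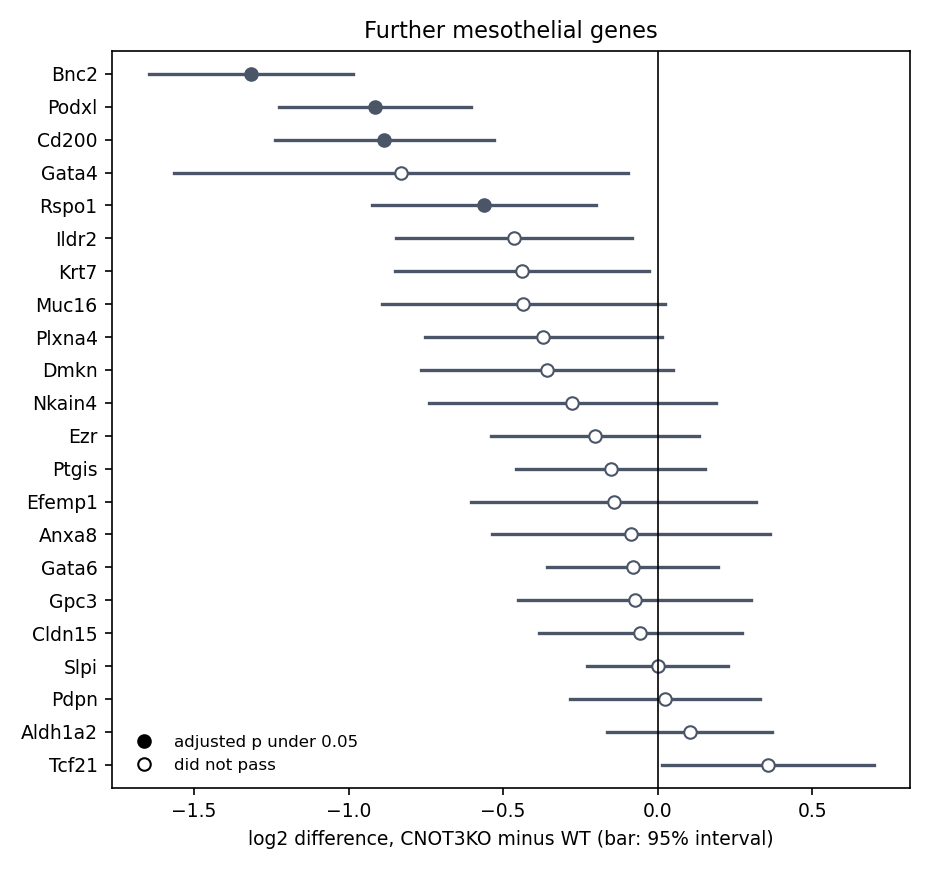
Log2 difference (CNOT3KO minus WT) of the 22 tested genes of the further mesothelial list with 95% intervals, filled where the limma adjusted p was under 0.05. Bnc2, Podxl, Cd200 and Rspo1 are filled, and the points of Slpi, Pdpn and Cldn15 lie at or beside 0.

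Several of the mesothelial genes have relatives that read differently in the same samples. Of 17 listed relatives of uroplakin, proteolipid, LRRN, keratin and basonuclin genes, 7 were tested, of which Bnc2 and Krt10 fell, Gpm6b rose and 4 did not pass. Gpm6b read 536, 588 and 548 in WT and 905, 1027 and 679 in CNOT3KO, a rise of 1.52-fold (log2 difference 0.60, limma adjusted p = 0.0114) with no overlap, and a second probe set rose 1.65-fold. With both mice numbered 1 left out the Gpm6b call was lost (limma adjusted p = 0.110). The log2 ratio of Gpm6a to Gpm6b within an array was 1.21 ± 0.20 in WT and -0.10 ± 0.14 in CNOT3KO (SD, n = 3 each). For Bnc1 over Bnc2 the log2 ratio was -2.82 ± 0.33 in WT and -1.52 ± 0.16 in CNOT3KO. In both pairs the groups did not overlap. The two-sided exact permutation p was 0.1, the smallest that 3 against 3 mice allow, or 0.15 after adjustment over the 3 ratios tested. For Gpm6a over Gpm6b this outcome was fixed by the single genes. Every CNOT3KO mouse lay below every WT mouse for Gpm6a and above every WT mouse for Gpm6b. The shift of Bnc1 over Bnc2 lay almost wholly in Bnc2 (log2 difference -1.32, against -0.018 for Bnc1). Both ratios therefore restate the single-gene values and are not separate evidence. Krt10, a keratin of the upper epidermis, fell to 73.3% of WT (adjusted p = 0.0376), a call that held in only 1 of the 6 analyses that left out an array.

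Keratin filaments are anchored at desmosomes through plakins and armadillo proteins. Of 10 tested genes of desmosomes and of filament linkers, which are not all desmosomal, 3 fell, 1 rose and 6 did not pass. Dst, which codes for the linker dystonin, fell to 39.1% of WT, from 5209 ± 52.1 to 2049 ± 384 (SD, n = 3 each), a log2 difference of -1.35 that was -0.74 when all its probe sets were averaged. Pkp4 fell to 49.8% and Jup, which codes for plakoglobin, to 62.9%, both with no overlap between groups. Pkp2 rose 1.41-fold, a call lost when all its probe sets were averaged (log2 difference 0.15), when probe sets shared between transcripts were avoided (0.41) and with both mice numbered 1 left out (0.43). These genes are also active in other cells of the fat pad. Dsp, which codes for desmoplakin, did not pass and was highest in mouse 1 of each group, at 143 in WT and 127 in CNOT3KO against 43.2 to 74.9 in the other mice.

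Mesothelial cells can take on a mesenchymal form, with a loss of keratins and a gain of contractile and matrix genes. Of 12 tested genes of that transition, Tgfb1, Tgfb2 and Fn1 rose, Zeb1 and Acta2 fell, and 7 did not pass, with a median log2 difference of -0.02. Tgfb1 read 104, 85.2 and 91.9 in WT and 224, 208 and 226 in CNOT3KO, a rise of 2.08-fold (log2 difference 1.06, limma adjusted p = 0.00072). Averaged over all its probe sets, its log2 difference was 0.45 (adjusted p = 0.0362). Zeb1, a transcriptional repressor of epithelial genes, fell to 61.9% of WT, while Snai1, Snai2, Twist1 and Vim did not pass. Tgfb2 rose 1.65-fold and Fn1 1.52-fold, and Acta2, which is made by vascular smooth muscle as well, fell to 57.2%. The call on Tgfb2 was lost when probe sets shared between transcripts were avoided (log2 difference 0.43), and those on Fn1 and Acta2 were each lost in 4 of the 6 analyses that left out an array.

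Genes of other epithelia were read because keratins are not confined to mesothelium. Of 13 epithelial genes with a probe set, 7 passed the filter and 0 were called by limma. Their summed signal was 1958, 1273 and 1542 in WT and 1818, 1104 and 1059 in CNOT3KO, highest in mouse 1 of each group, the mice in which Krt8 was also highest. Prom1 read 398, 156 and 156 in WT and 326, 50.3 and 73.2 in CNOT3KO. Elf3 was also highest in mouse 1 of each group, but the other tested epithelial genes did not share this order in both groups. Cd24a was highest in mouse 3 among WT (820) and in mouse 1 among CNOT3KO (726). Epcam was highest in mouse 1 among WT (202) and in mouse 2 among CNOT3KO (193). Cldn4 and Spint1 were highest in mouse 2 among WT (105 and 65.6) and in mouse 1 among CNOT3KO (58.4 and 115). Grhl2 was lowest in mouse 1 of each group, at 56.0 in WT and 27.1 in CNOT3KO. Cdh1, a defining epithelial gene, was too dim to test and read between 1 and 88.0. With both mice numbered 1 left out, Krt8 was called lower (log2 difference -0.77, adjusted p = 0.0229), as was Krt19 (-0.78, adjusted p = 0.0479), while Lrrn4 lost its call (-0.51, adjusted p = 0.0672). The part of epithelial cells in the keratin values was not tested. Of 9 epididymal genes with a probe set, 8 were too dim to test and Rnase10 was higher (1.65-fold), and all 8 testis genes were too dim.

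**Figure D4:**
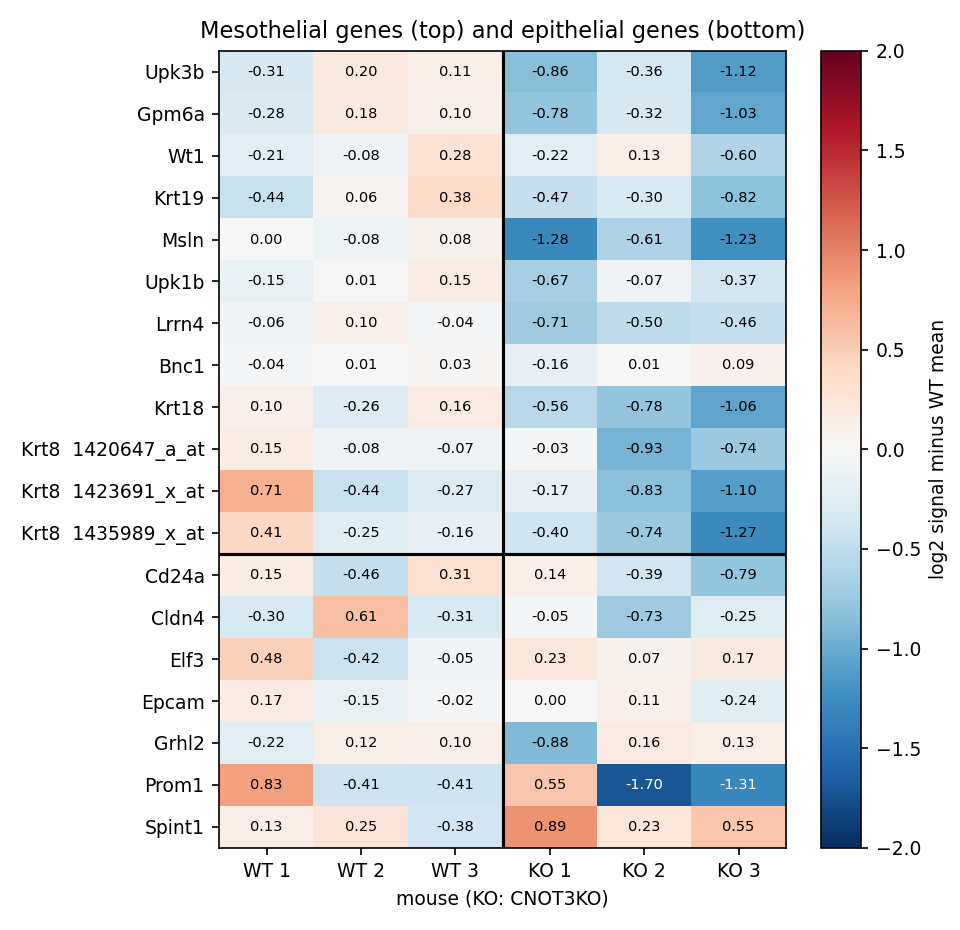
Log2(signal + 22.5) minus the WT mean for each mouse (columns, WT left and CNOT3KO right of the vertical line), with the mesothelial genes and all 3 Krt8 probe sets above the horizontal line and the tested epithelial genes below it. Blue cells are below and red cells above the WT mean. The CNOT3KO columns are mostly blue for Msln, Upk3b, Gpm6a, Lrrn4 and Krt18. Krt8, Prom1 and Elf3 are highest in mouse 1 within each group, and the other epithelial genes do not share this order in both groups.

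Markers of other cell types of the fat pad also changed. All 12 endothelial markers fell, with summed signals of 13264 to 14383 in WT and 5272 to 6027 in CNOT3KO, and 11 of 12 macrophage markers rose while Mertk fell (25825 to 34029 against 55990 to 76188). Of 11 smooth muscle and pericyte markers 6 fell and 2 rose, of 10 progenitor and fibroblast markers 4 rose and 1 fell, and of 5 tested lymphocyte markers 2 fell. Of 12 adipocyte markers 3 fell (Lep, Cidec and Plin4) and 9 did not pass, Adipoq among them (94.4% of WT). The summed signal of the 10 mesothelial genes was 6336, 7733 and 7902 in WT and 4472, 5710 and 3980 in CNOT3KO, again without overlap. This sum of linear signals is weighted to the brightest genes, Upk3b (WT mean 2466) and Gpm6a (WT mean 1334), both already called lower. Taken singly, 5 of the 10 genes showed no overlap. The share of all genes was not counted, and of all tested probe sets 24.4% had every CNOT3KO mouse below every WT mouse. The part of the other cell types in the mesothelial values was not tested. Over all genes, 42.2% of the called genes were lower, and 54.7% with each array centred on its median.

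Within the groups, the mesothelial genes varied from mouse to mouse in a partly shared way. CNOT3KO mouse 2 had the highest reading of its group for 6 of the 10 genes, and WT mouse 1 the lowest of its group for 7. The keratin genes Krt8 and Krt18 departed from this order, with mouse 1 highest in CNOT3KO. Genes were ranked by the correlation of their deviations from the group means with the mean deviation of the 10 genes over the 6 arrays, as a description. The 5 highest were Igfbp5 (r = 0.999), Emp1, Add3, Nfe2l2 and Gm31024 (each r above 0.99). Igfbp5, which codes for an insulin-like growth factor binding protein, read 5528 in WT and 1918 in CNOT3KO. Of the 12759 genes ranked, 447 (3.50%) had r above 0.9, so likeness over 6 arrays is shared by many genes. Of the further mesothelial list, Ildr2 (r = 0.92), Rspo1 (r = 0.91) and Muc16 (r = 0.90) were among them. The other tested genes of that list ran from r = 0.81 (Gpc3) to r = -0.80 (Cldn15). Besides Rspo1, the genes of that list that fell were Cd200 (r = 0.29), Podxl (r = 0.05) and Bnc2 (r = -0.46).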

How the data were processed

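Total RNA of 6 fat pads was measured on 1 array each. The intensity values, linear signals per probe set, are deposited as MAS5 output, according to the submitters' processing notes. The MAS5 version and scaling target were not given in the sources used here. Sample titles, each naming a separate mouse, gave groups and numbers. The members and gene lists were chosen with earlier results of these data known.

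Of 45037 probe sets, 34945 carried 1 gene symbol in the platform annotation, 932 carried several and 9160 none. Genes were represented by their brightest probe set. Those with a mean signal under the 40th percentile (51.6) were not tested, which left 12769 genes. limma 3.58.1 (R 4.3.3) was fitted to log2(signal + 22.5), where the offset is the 25th percentile over the table (lmFit, then eBayes with a mean-variance trend). Tests were two-sided, with a threshold of 0.05 on the Benjamini-Hochberg adjusted p. A further fit used all 22861 named probe sets. The fits were tested on simulated data. Named were all members, all called genes of the further mesothelial and related-gene lists, and up to 3 called genes of other lists, or the brightest where none was called. Any further gene named was picked with its values known. The alternatives changed offset, filter, scaling, probe set choice, variance model, array weights, a block on mouse number and each array left out.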

Additional observations from a re-analysis of the deposited data

How the results depend on the processing

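Msln and Krt18 were called lower under all 19 alternatives, and Upk3b, Lrrn4 and Gpm6a under 18, 18 and 17 of them. The number of mesothelial genes called lower was 8 with each array centred on its median, 6 with the mouse number as a replicate block and between 3 and 6 with 1 array left out. The mouse numbers were not taken as pairs, since deviations of same-numbered mice correlated at 0.07, 0.11 and 0.04. The number of mesothelial probe sets called lower was between 4 and 8 with 1 array left out, and 4 with both mice numbered 1 left out, an alternative chosen after seeing the data. It was 12 with centring, 11 with array weights and 10 with the replicate block. Leaving those mice out moved the median log2 difference from -0.56 to -0.77. Of the further mesothelial list, 7 genes were lower with centring, 8 with array weights and between 3 and 7 with 1 array left out. The number higher was 1 with array weights and between 0 and 1 with 1 array left out. Bnc1, which was not called, had a log2 difference of 0.017 with quantile normalization, 0.032 with both mice numbered 1 left out and between -0.071 and 0.052 with 1 array left out. Centring moved the median of all genes by -0.10. The causes of these changes were not tested, beyond the smaller number of arrays where some were left out. No outlier test was made in groups of 3.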

Other observations

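Some relatives of the mesothelial genes were too dim to test. Krt14, a keratin of basal epithelial cells, has 3 probe sets. The brightest read 72.1, 66.6 and 75.1 in WT and 26.5, 15.6 and 10.9 in CNOT3KO, with every CNOT3KO mouse below every WT mouse. In the other 2 Krt14 probe sets the groups overlapped, at 13.1, 19.3 and 20.4 against 12.3, 20.8 and 30.1, and at 27.2, 29.1 and 9.27 against 9.17, 5.29 and 10.8. Lrrn2, a relative of Lrrn4, read 15.2, 14.4 and 8.42 in WT and 15.7, 62.1 and 59.6 in CNOT3KO. Krt14 and Lrrn2 were chosen after their values were seen, and they have no test. Calb2, which codes for calretinin and marks mesothelium in pathology, read between 9.32 and 28.4 and was also too dim to test.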
